A study of Mus musculus with 21 samples.

Results

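The transcription factors that start the heart programme were followed through the first days of embryoid body formation. These were Nkx2-5, Gata4, Tbx5, Tbx20, Hand1, Hand2, Isl1, Mef2c and Myocd. Every probe set that the platform annotation gives to these 9 genes alone was taken, whatever its values. They are 22 of the 45101 probe sets on the array, and 9 of the 18193 genes with a probe set of their own. Nkx2-5 has 1 probe set, Mef2c has 5, Tbx20 and Hand2 have 3 each and the other five genes have 2 each. Probe sets of 1 gene report the same gene and are not replicates.

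The cells were CGR8, a mouse embryonic stem cell line, so every sample comes from 1 line. Day 0 cells were undifferentiated and their medium is labelled 10% GMEM. Embryoid bodies, the aggregates in which stem cells begin to form germ layers, began as hanging drops (25 µL, 500 cells) and were kept on a shaker after day 2, in medium labelled 20% IMDM. They were collected at days 2, 3 and 5, either untreated (control) or with ascorbic acid (AA, vitamin C) at 100 µM. Each of the 7 groups holds 3 biological replicates on 21 Affymetrix arrays, each from 100 ng of total RNA. Medium and aggregation change together between day 0 and day 2. Only cultures in which AA later raised the number of beating aggregates were kept for the arrays, so the sample is a selected one. The comparisons ask when these factors appear and whether AA changes their levels before beating begins.

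Heart muscle forms from mesoderm cells that leave the primitive streak and settle in the heart fields. There, a small set of DNA-binding factors switch each other on and bind together at the promoters and enhancers of contractile genes. GATA4 is a zinc finger factor, NKX2-5 and ISL1 are homeodomain factors, TBX5 and TBX20 are T-box factors, and HAND1 and HAND2 are basic helix-loop-helix factors. MEF2C is a MADS-box factor and myocardin, the product of Myocd, is a coactivator of the serum response factor. None of them is a mark of heart muscle alone. Gata4 is also active in extraembryonic endoderm, Hand1 in trophoblast and extraembryonic mesoderm, Isl1 in motor neurons, and Mef2c in endothelium, skeletal muscle and brain.

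Values are RMA log2 signals, on which a difference of 1 is a doubling of signal. They have no natural zero and depend on each probe set's own sequence, so levels are compared between samples and not between probe sets. As a reference for silent genes, 83 probe sets of olfactory and vomeronasal receptors had a median signal of 4.74, with 6.74 as their 95th percentile. A group mean under 6.74 is called here within the receptor range, and no fold change is given against it. A log2 difference from such a group is a difference of signals that starts from the probe set's own background, so it can understate the change in transcript and does not rank one gene against another. Array medians ran from 6.05 to 6.19. Replicates correlated with r of 0.972 to 0.995, the lowest involving day 0 replicate 1. The stem cell label was borne out at day 0, when 0 of 8 pluripotency markers lay in the receptor range. In aggregates, fewer cells of a type and less RNA per cell cannot be told apart.

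The factors were at background or flat until day 3, and most of them rose between days 3 and 5. In control aggregates, 15 of the 22 probe sets, from 6 of the 9 genes, were called higher at day 5 than at day 3, where 13.2% of all 45037 tested probe sets were called (6.76% higher). With AA, 16 of 22, from 7 genes, were called higher than at day 3, against 13.0% of all (6.73% higher). None was called lower in either arm. The median difference over the 22 was 1.34 in controls and 1.19 with AA, and over all probe sets it was -0.02 in both. A call is a Benjamini-Hochberg adjusted p under 0.05 from limma over all tested probe sets. The p-values measure only the spread between these samples. The 2 arms share no array in these comparisons. In 14 of the 22 probe sets all 6 day 5 arrays lay above all 15 earlier ones, which 4.97% of all probe sets did.

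**Figure D1:**
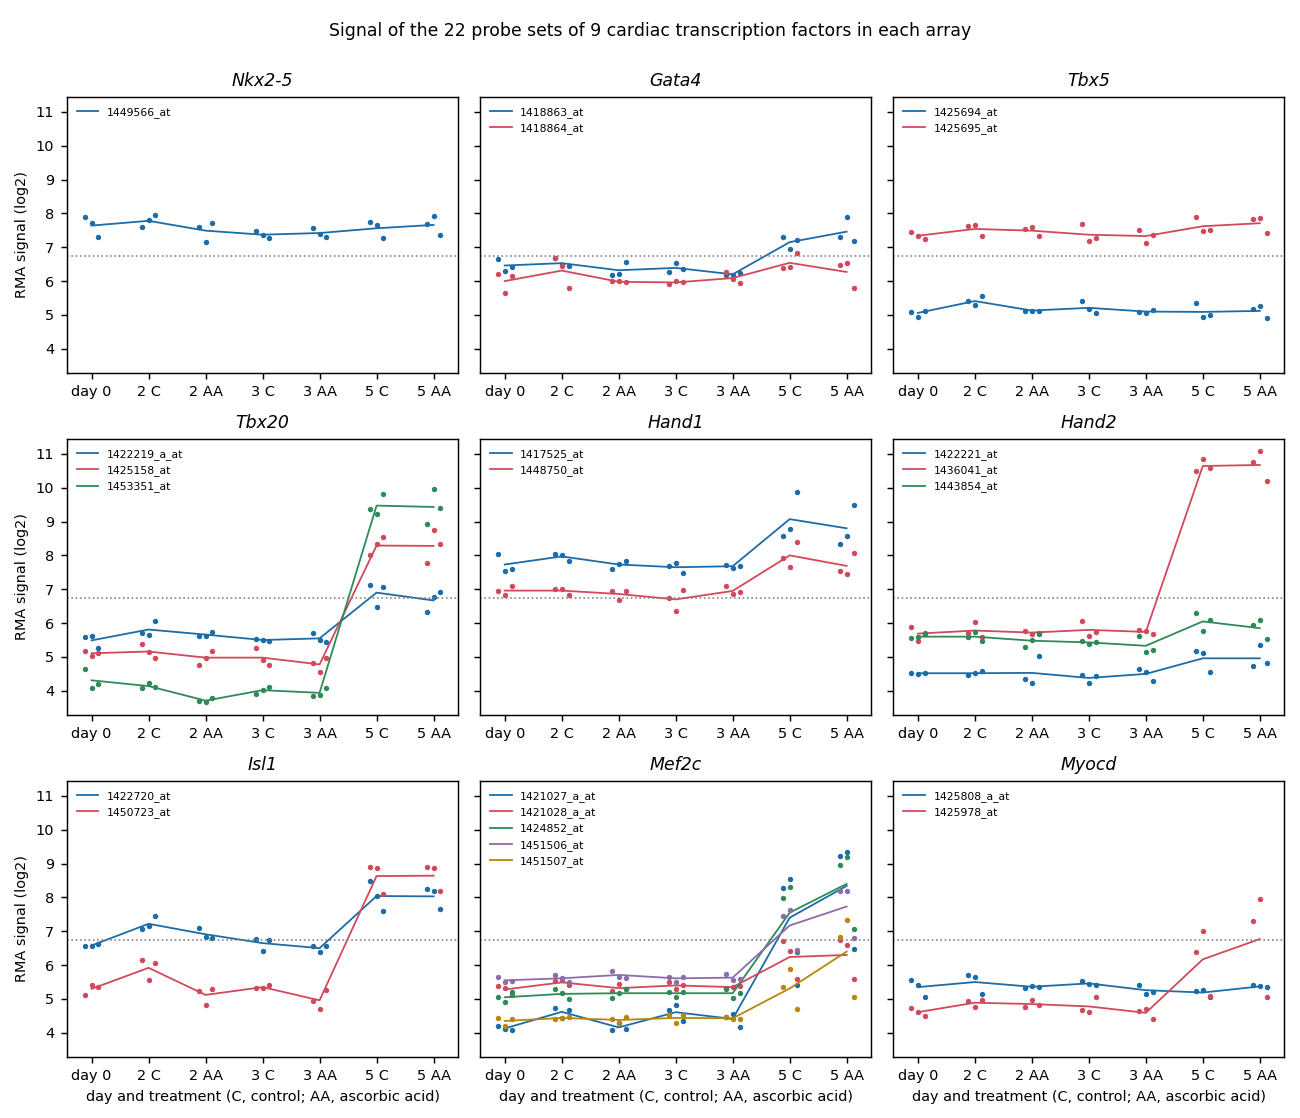
Log2 signal of all 22 probe sets of the 9 factors on each of the 21 arrays, 1 panel per gene, with arrays grouped by day and treatment. Each point is 1 array, and the dotted line marks 6.74, the 95th percentile of receptor probe sets. Hand2, Tbx20, Isl1, Mef2c and Gata4 leave the receptor range at day 5 on at least 1 probe set, and Nkx2-5 and Tbx5 stay flat. Myocd 1425978_at leaves it with AA only (mean 6.77), and Isl1 1422720_at also lies above it at day 2.

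Hand2 is needed for the right ventricle and the second heart field, and Tbx20 is a T-box factor of the early heart tube. Both moved clear of the receptor range, though not on every probe set. On Hand2 probe set 1436041_at, the 15 arrays of days 0 to 3 lay between 5.48 and 6.06. The day 3 controls read 6.06, 5.61 and 5.74 and the day 5 controls 10.49, 10.86 and 10.57. With AA the same days read 5.79, 5.77 and 5.67, then 10.75, 11.07 and 10.20. The groups of days 3 and 5 lay over 4 units apart with no overlap, and the treated and control arrays of day 5 overlapped. Hand2 rose by 4.84 ± 0.18 (SE, n = 3 per group) in controls (limma adjusted p = 2.62e-13) and by 4.93 ± 0.18 with AA (adjusted p = 1.51e-13).

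The other Hand2 probe sets, 1422221_at and 1443854_at, stayed in the receptor range in all 7 groups. Their day 5 control values of 5.18, 5.12 and 4.57, and of 6.29, 5.78 and 6.09, were higher than at day 3 by 0.58 ± 0.19 (limma adjusted p = 0.047) and 0.62 ± 0.16 (adjusted p = 0.00978). These calls were fragile. The 1422221_at call was lost without any one of day 3 control replicates 1, 2 and 3 (0.63, 0.51 and 0.61, adjusted p = 0.0714, 0.163 and 0.0999). It was also lost without day 5 control replicate 1 (0.47, adjusted p = 0.20) or 2 (0.50, adjusted p = 0.17), and with the replicate number as a block (adjusted p = 0.0544). The 1443854_at call was lost without day 5 control replicate 1 (0.50, adjusted p = 0.0687). With AA, 1422221_at differed by 0.47 (adjusted p = 0.124) and 1443854_at rose by 0.52 (adjusted p = 0.0329). The latter call was lost without day 3 AA replicate 2 or 3 (0.43 and 0.46, adjusted p = 0.145 and 0.147) or day 5 AA replicate 1 or 2 (0.47 and 0.40, adjusted p = 0.113 and 0.181). The probe sets of Hand2 therefore disagree in size, and the size depends on which is read.

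Tbx20 rose on all 3 of its probe sets. On 1453351_at the day 3 controls read 3.92, 4.02 and 4.11 and the day 5 controls 9.38, 9.23 and 9.80. With AA the values were 3.85, 3.89 and 4.09 at day 3 and 8.92, 9.96 and 9.40 at day 5. Every day 5 array stood above the highest of the 15 earlier arrays, 4.64, by more than 4 units. The rise was 5.45 ± 0.19 in controls (limma adjusted p = 1.20e-13) and 5.48 ± 0.19 with AA (adjusted p = 9.93e-14). Probe sets 1425158_at and 1422219_a_at rose by 3.31 and 1.40 in controls and by 3.50 and 1.11 with AA. The day 5 mean of 1422219_a_at was 6.90 in controls and 6.67, within the receptor range, with AA.

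Isl1, a factor of second heart field progenitors, rose on both probe sets. On 1450723_at the 15 earlier arrays lay between 4.69 and 6.15, the day 5 controls at 8.91, 8.87 and 8.10, and the day 5 AA arrays at 8.89, 8.86 and 8.18. Replicate 3 was the lowest day 5 array in both arms, and no day 5 array overlapped an earlier one. From day 3 it rose by 3.27 ± 0.22 in controls (limma adjusted p = 2.43e-09) and by 3.68 ± 0.22 with AA (adjusted p = 3.89e-10). On 1422720_at, whose day 3 means also lay in the receptor range, the rises were 1.39 ± 0.19 and 1.53 ± 0.19.

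The promoters of these 3 genes are shown because each gene rose by more than 3 units in both arms on at least 1 probe set. Each is the 250 bases upstream of the RefSeq start site in build GRCm38.p6, written 5′ to 3′ on the gene's strand, at chr9:24774304-24774553 (minus) for Tbx20, chr8:57320733-57320982 (plus) for Hand2 and chr13:116309689-116309938 (minus) for Isl1. Capitals mark GATA motifs, the letters GATA after A or T and before A or G, on either strand, which GATA4 and its relatives bind.
Tbx20: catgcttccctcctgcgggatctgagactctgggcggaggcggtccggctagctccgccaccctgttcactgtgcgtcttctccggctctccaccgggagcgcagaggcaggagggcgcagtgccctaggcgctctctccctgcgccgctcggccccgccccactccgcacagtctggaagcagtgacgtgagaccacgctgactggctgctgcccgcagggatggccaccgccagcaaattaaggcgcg
Hand2: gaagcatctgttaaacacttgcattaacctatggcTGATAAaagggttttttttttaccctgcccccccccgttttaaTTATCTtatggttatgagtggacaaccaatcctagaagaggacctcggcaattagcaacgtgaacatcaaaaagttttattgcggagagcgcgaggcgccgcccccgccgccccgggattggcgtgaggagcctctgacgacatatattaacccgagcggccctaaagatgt
Isl1: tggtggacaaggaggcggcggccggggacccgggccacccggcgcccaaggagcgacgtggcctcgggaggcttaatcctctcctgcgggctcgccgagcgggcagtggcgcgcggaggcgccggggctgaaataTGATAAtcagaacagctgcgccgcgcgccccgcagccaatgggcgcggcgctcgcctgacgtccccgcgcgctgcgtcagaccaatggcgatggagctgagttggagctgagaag
Counted from the start site, the Hand2 window holds a match at -215 to -210 on the gene's strand and 1 at -172 to -167 on the opposite strand. The Isl1 window holds 1 at -115 to -110, and the Tbx20 window holds none of these letters. The windows found for Nkx2-5 and Mef2c hold none either. Of all 32851 windows of this length, 26.5% hold such a match. The T-box letters AGGTGT, searched on both strands, lie in 11.8% of all windows and, among the windows of the factors, in 1 of Mef2c at -216 to -211. Promoter windows were found for 5 of the 9 genes. Neither binding nor promoter activity was measured here.

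Hand1 and Gata4 also rose. Hand1, which acts in the outer curvature of the left ventricle and in extraembryonic tissue, was above the receptor range in all groups on 1417525_at. Its day 3 controls read 7.69, 7.78 and 7.49 and its day 5 controls 8.57, 8.77 and 9.86. The AA arrays read 7.73, 7.63 and 7.68 at day 3 and 8.34, 8.56 and 9.49 at day 5. Replicate 3 was the highest day 5 array in both arms, and days 3 and 5 did not overlap. Hand1 rose 2.66-fold in controls (1.41 ± 0.27, limma adjusted p = 0.00108) and 2.17-fold with AA (1.12 ± 0.27, adjusted p = 0.00767). Without day 5 AA replicate 3 the latter difference was 0.77 (adjusted p = 0.0583). Probe set 1448750_at rose by 1.30 ± 0.19 in controls and by 0.74 ± 0.19 with AA (adjusted p = 0.0114), and without day 5 AA replicate 3 by 0.54 (adjusted p = 0.0809, no call).

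For Gata4, whose product works with NKX2-5 and TBX5 at heart promoters, 1418863_at left the receptor range at day 5. The day 3 controls read 6.27, 6.54 and 6.37 and the day 5 controls 7.29, 6.95 and 7.20. With AA they read 6.17, 6.17 and 6.25 and then 7.30, 7.89 and 7.18. The days did not overlap, while the arms overlapped at day 5. The rise was 0.75 ± 0.16 in controls (limma adjusted p = 0.00323) and 1.26 ± 0.16 with AA (adjusted p = 1.69e-05). The second Gata4 probe set, 1418864_at, stayed in the receptor range, with differences of 0.58 (adjusted p = 0.0793) and 0.18.

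Mef2c, a MADS-box factor of the second heart field and also of endothelium, rose on 4 of 5 probe sets in controls and on 5 of 5 with AA, with a wide spread at day 5. On 1421027_a_at the day 3 controls read 4.66, 4.81 and 4.35 and the day 5 controls 8.27, 8.53 and 5.40. The day 5 AA arrays read 9.22, 9.34 and 6.47, after 4.47, 4.57 and 4.18 at day 3. Replicate 3 lay about 3 units under the others in both arms, yet all 6 day 5 arrays stood above the highest earlier one, 4.81. The rise was 2.79 ± 0.63 in controls (limma adjusted p = 0.00412) and 3.94 ± 0.63 with AA (adjusted p = 1.71e-04).

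On the other Mef2c probe sets replicate 3 was also the lowest day 5 array in both arms. Probe sets 1424852_at and 1451506_at rose by 2.39 and 1.56 in controls and by 3.23 and 2.10 with AA. On 1451507_at the control difference of 0.86 was not called (limma adjusted p = 0.134), while with AA it rose by 1.98. Its mean lay in the receptor range in all 7 groups. The remaining one, 1421028_a_at, also stayed in the receptor range and rose by 0.84 in controls (adjusted p = 0.0225) and by 0.96 with AA (adjusted p = 0.0096). Its control call was lost without day 3 control replicate 2 or 3 (0.79 and 0.84, adjusted p = 0.0772 and 0.0676) or day 5 control replicate 1 or 2 (0.61 and 0.75, adjusted p = 0.151 and 0.0919). Its AA call was lost without day 5 AA replicate 1 or 2 (0.74 and 0.81, adjusted p = 0.0721 and 0.0635).

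Myocd, which drives heart and smooth muscle genes, showed the same split between replicates on 1425978_at. The day 3 controls read 4.66, 4.62 and 5.06, the day 5 controls 6.40, 7.02 and 5.10, and the day 5 AA arrays 7.31, 7.94 and 5.06. Replicate 3 of day 5 lay beside the highest day 3 control in both arms, while replicates 1 and 2 stood above every earlier array. The control difference of 1.39 ± 0.48 was not called (limma adjusted p = 0.0627), and without day 5 control replicate 3 it was 1.93 and called (adjusted p = 0.0105). It was also called with the replicate number as a block over all arrays (1.39, adjusted p = 0.0362). With AA the rise was 2.18 ± 0.48 (adjusted p = 0.00367). The other Myocd probe set, 1425808_a_at, stayed in the receptor range and differed by -0.27 and 0.11, neither called.

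**Figure D2:**
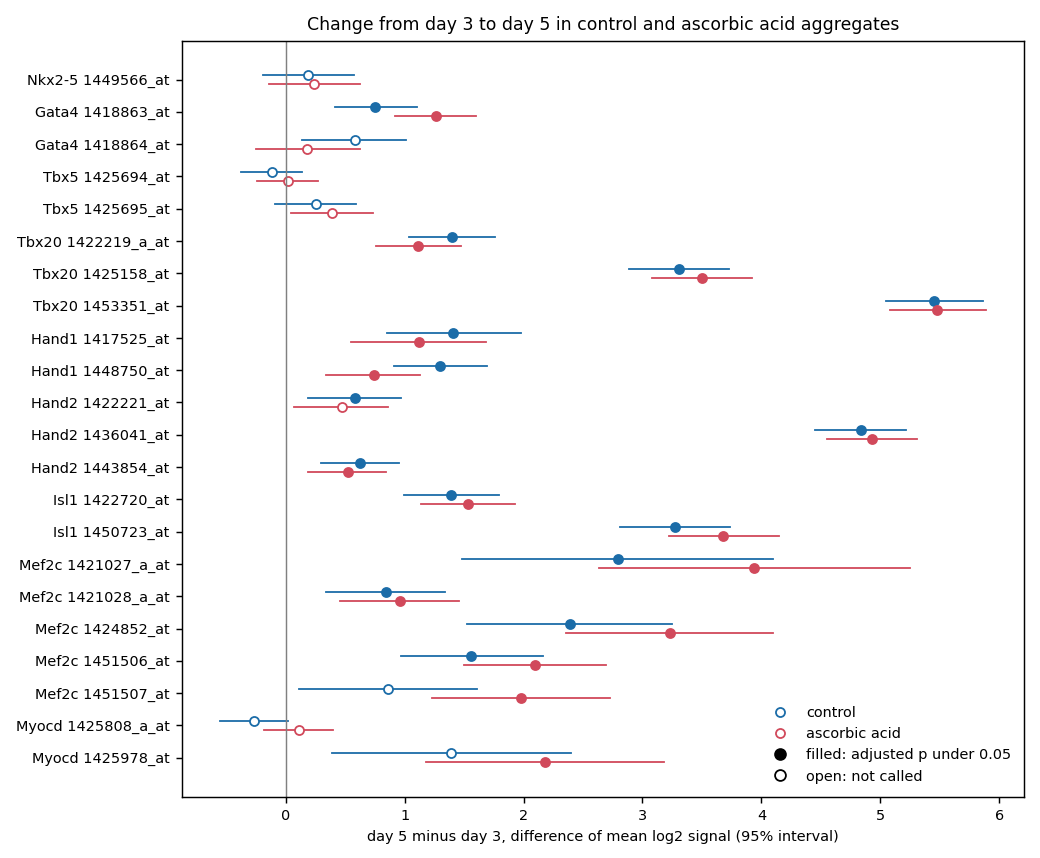
Difference in log2 signal between day 5 and day 3 for each of the 22 probe sets, in control and AA aggregates, from the limma fit (points, 3 arrays per group) with 95% confidence intervals (bars). Tbx20 1453351_at and Hand2 1436041_at lie farthest from 0, and the intervals of Nkx2-5 cross 0 in both arms.

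Nkx2-5 and Tbx5, which act together in the forming heart tube and atria, were not called between days 3 and 5. Nkx2-5 1449566_at lay between 7.16 and 7.94 on the earlier arrays and between 7.26 and 7.92 at day 5. The neighbouring groups in its order of means all overlapped. Its day 5 minus day 3 difference was 0.19 (95% interval -0.19 to 0.57) in controls and 0.24 (-0.14 to 0.62) with AA. These intervals leave room for a change of up to about 0.6 units. The Tbx5 probe set above the receptor range, 1425695_at, differed by 0.25 and 0.39 (limma adjusted p = 0.412 and 0.147), and 1425694_at, within it in every group, by -0.12 and 0.02.

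Measured from day 0, 15 of 22 probe sets from 7 genes were called higher at day 5 in controls (23.6% of all called, 12.2% higher) and 15 from 7 genes with AA (23.2%, 12.2% higher). Both comparisons use the same day 0 arrays, of which replicate 1 stands apart. Without it and without each other array in turn, 13 to 16 were called in controls and 14 to 15 with AA. Myocd 1425978_at was among them, at 1.56 in controls (limma adjusted p = 0.0216) and 2.16 with AA (adjusted p = 0.00206). Its control call was lost without day 0 replicate 2 or 3 (1.56 and 1.5, adjusted p = 0.0516 and 0.0588) or day 5 control replicate 1 or 2 (1.45 and 1.14, adjusted p = 0.0729 and 0.142). Hand2 1443854_at was called at 0.45 in controls (adjusted p = 0.0425) and lost without any one of the 3 day 0 arrays, day 5 control replicate 1 or day 5 control replicate 3, at 0.33 to 0.48 (adjusted p from 0.0623 to 0.192). Hand1 1417525_at and 1448750_at rose by 1.07 and 0.73 with AA, calls that were lost without day 5 AA replicate 3 (0.72 and 0.53, adjusted p = 0.0526 and 0.0587). Other probe sets gained a call when 1 array was left out. Gata4 1418864_at did so without day 0 replicate 1 (0.64 in controls), Hand2 1422221_at and Mef2c 1451507_at without day 5 control replicate 3 (0.63 and 1.27), and Tbx5 1425695_at, at 0.37 with AA, without day 5 AA replicate 3 (0.51, adjusted p = 0.0422).

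Before day 3 the factors moved little. From day 0 to day 2, 1 of 22 was called in controls, against 8.52% of all probe sets, and 0 of 22 with AA, against 9.73% (limma; 1 at an unadjusted p under 0.05). That call was Isl1 1422720_at, which read 6.57, 6.57 and 6.61 at day 0, 7.06, 7.15 and 7.46 in day 2 controls and 6.78, 6.42 and 6.74 in day 3 controls. Day 2 controls lay above both neighbours without overlap. The day 2 rise of 0.64 ± 0.19 (adjusted p = 0.04) was lost without any one of the 3 day 0 or the 3 day 2 control arrays, at 0.52 to 0.72 (adjusted p from 0.0507 to 0.141). From day 2 to day 3, limma called 0 of 22 in controls (3.35% of all; 3 at an unadjusted p under 0.05) and 0 of 22 with AA (2.94% of all; 1 at an unadjusted p under 0.05). In controls 19 of the 22 differences in this step were negative, with a median of -0.16, against -0.04 over all probe sets.

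AA was compared with control within each day. In the unpaired fit, which compares group means, limma called 0 of 22 at day 2 (0.00444% of all probe sets), day 3 (0.00222%) and day 5 (0.0688%). At an unadjusted p under 0.05 there were 3, 0 and 1. Averaged over the days 0 were called (0.0155% of all; 1 at an unadjusted p under 0.05). Same-numbered AA and control arrays of a day deviated together over all genes, so a paired fit with the pair as a block was also made. The labels do not say whether same-numbered arrays shared a culture, so the pairing is inferred from these data. It called 1 of 22 lower at day 2 (1.64% of all), 0 at day 3 (0.0910%; 1 at an unadjusted p under 0.05), 4 higher at day 5 (0.615%) and 1 lower over the average (1.06%). The 4 at day 5 are all probe sets of Mef2c, and the other 2 are the same probe set of Isl1.

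Mef2c was higher with AA in every day 5 pair on 4 of its 5 probe sets. On 1421027_a_at, whose day 5 values stand above, AA exceeded control by 0.95, 0.81 and 1.07 in pairs 1, 2 and 3. On 1424852_at the day 5 controls read 7.97, 8.31 and 6.38 and the AA arrays 8.95, 9.18 and 7.07, a gap of 0.98, 0.87 and 0.69. Both groups overlapped because replicate 3 was low in each, while the gap within pairs was steady. The paired rise was 0.94 ± 0.12, or 1.92-fold, on the first (limma adjusted p = 5.92e-04) and 0.85 ± 0.12, or 1.80-fold, on the second (adjusted p = 0.00166). The unpaired fit gave the first the same difference with an interval from -0.37 to 2.25 (adjusted p = 1).

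The other Mef2c probe sets were less steady. On 1451506_at the day 5 controls read 7.45, 7.62 and 6.45 and the AA arrays 8.20, 8.19 and 6.79. The paired rise was 0.55 ± 0.11, or 1.47-fold (limma adjusted p = 0.0316), and it was not called without pair 1 (0.46, adjusted p = 0.354) or pair 2 (0.54, adjusted p = 0.18). On 1451507_at the pair differences were 1.48, 1.45 and 0.36, with both group means in the receptor range. Its paired rise was 1.10 ± 0.16 (adjusted p = 0.00232), and it was not called without pair 1 (0.91, adjusted p = 0.0692) or pair 2 (0.92, adjusted p = 0.0558). Probe set 1421028_a_at differed by 0.04, 0.18 and -0.02 and was not called.

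Leaving out replicate 3 of day 5 in both arms brought Mef2c past the threshold in the unpaired fit as well. Differences were then 0.88, 0.92, 0.66 and 1.47 on 1421027_a_at, 1424852_at, 1451506_at and 1451507_at (limma adjusted p = 0.0232, 0.0104, 0.0448 and 1.62e-04). Without day 5 AA replicate 3 alone, only 1451507_at was called among the 22 (1.77, adjusted p = 2.46e-04). Myocd 1425978_at was higher with AA by 0.91 and 0.92 in pairs 1 and 2 and differed by -0.04 in pair 3, which gave a paired difference of 0.60 without a call (adjusted p = 0.225) and 0.92 with a call without pair 3 (adjusted p = 0.0169).

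The AA differences of Mef2c were not the same on all days, although at days 2 and 3 every Mef2c group mean lay in the receptor range, where an effect of AA may not show. At day 2, 1421027_a_at read 4.74, 4.45 and 4.67 in controls and 4.07, 4.28 and 4.12 with AA, a paired difference of -0.46 that was not called (limma adjusted p = 0.0601). The paired F test over the days called 3 of 22, against 0.375% of all probe sets, and the unpaired test called 0 (limma; 0.00666% of all; 0 at an unadjusted p under 0.05). The 3 were Mef2c 1421027_a_at (adjusted p = 0.00174), 1424852_at (adjusted p = 0.0418) and 1451507_at (adjusted p = 0.0397). When each of the 9 pairs was left out in turn, 1421027_a_at was called in 9 of 9 fits (adjusted p up to 0.0125), 1424852_at in 1 (without day 2 pair 3) and 1451507_at in 2 (without day 2 pair 3 or day 5 pair 3), with adjusted p up to 0.20 and 0.219. The day 5 difference exceeded the day 3 difference, taken at background signal, by 1.14 ± 0.17 on 1421027_a_at (paired adjusted p = 0.00714), the 1 probe set of 22 called there, against 0.109% of all.

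**Figure D3:**
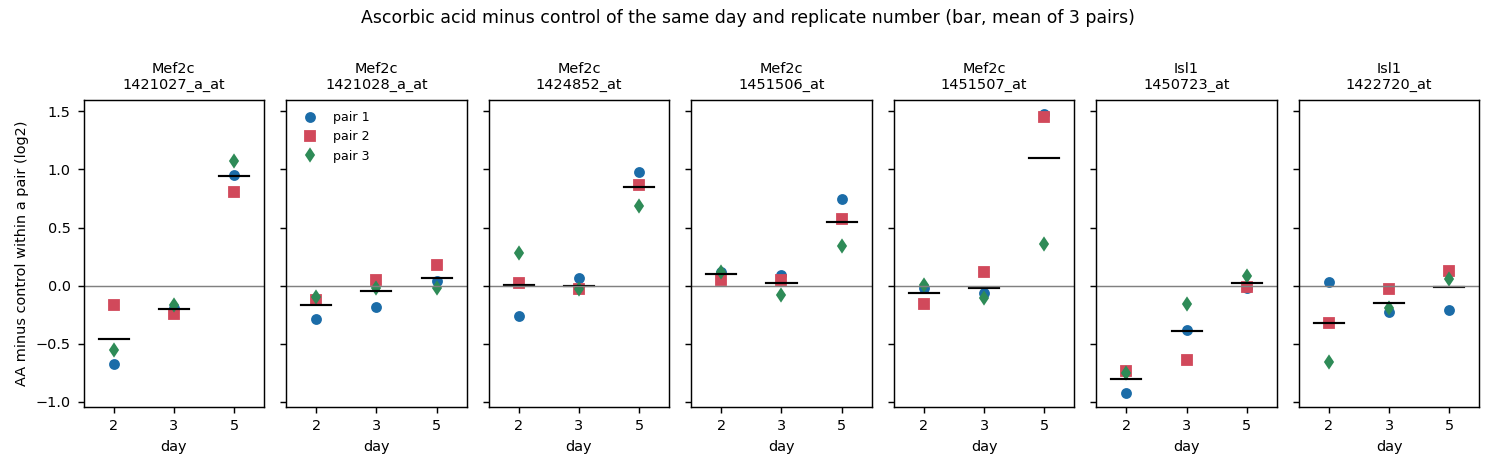
AA minus control in log2 signal for each same-numbered pair of arrays of a day, for the 5 probe sets of Mef2c and the 2 of Isl1, at days 2, 3 and 5. Each point is 1 pair. Mef2c 1421027_a_at is near 1 in all pairs of day 5, and Isl1 1450723_at lies between -0.92 and -0.73 at day 2.

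Isl1 was lower with AA at day 2 on 1450723_at. Controls read 6.15, 5.56 and 6.05 and AA arrays 5.23, 4.83 and 5.30, so that every AA array lay under every control. The pair differences were -0.92, -0.73 and -0.75, and the paired fit gave -0.80 ± 0.12 (limma adjusted p = 0.00197), a call kept without any one pair. In the unpaired fit the same difference had an adjusted p of 0.583. Both group means lay in the receptor range. The brighter Isl1 probe set, 1422720_at, differed by 0.03, -0.32 and -0.66 in the same pairs, with no call.

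At day 3 the Isl1 1450723_at pairs differed by -0.38, -0.64 and -0.16, and at day 5 the arms overlapped. Its average over the days was -0.39 (paired limma adjusted p = 0.00731). RNA quality probes moved with the day 2 comparison. The Actb 3′ minus 5′ signal was 1.22, 1.40 and 0.94 in day 2 controls against 0.91, 1.08 and 0.91 with AA, and that of Gapdh was 0.36, 0.63 and 0.17 against 0.15, 0.21 and 0.11. Of the 22 probe sets, 19 were lower with AA at day 2, with a median of -0.16 against -0.02 over all probe sets. The day 2 controls in this count are the same arrays as in the steps from day 0 and to day 3. Marker lists moved as well. The 7 smooth muscle markers summed to 760, 795 and 702 in day 2 controls and 1090, 888 and 957 with AA, with Myh11 and Lmod1 in the receptor range in both arms, and 2 of 7 were called higher in the paired fit, Myl9 (1.15) and Acta2 (0.66). The 18 upstream mesoderm genes summed to 5786, 5532 and 5768 in controls and 5238, 5005 and 5326 with AA. Of these, 12 were in the receptor range in each arm. The 8 trophoblast markers summed to 780, 879 and 597 and to 695, 598 and 542, with 6 and 7 of the 8 in that range. Of both lists 1 gene was called lower in the paired fit, Eomes (-0.62), which is on each. The unpaired fit called 0 of these 3 lists, where 2 smooth muscle markers and 0 of the others had an unadjusted p under 0.05. The part of RNA quality and of other cell types in the Isl1 difference was not tested.

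Replicate 3 of day 5 stood apart in a gene-specific way in both arms. Against the mean of replicates 1 and 2, Mef2c 1421027_a_at was at -3.0 in controls and -2.81 with AA, and Myocd 1425978_at at -1.61 and -2.57. Isl1 1450723_at was at -0.79 and -0.70. Hand1 1417525_at lay the other way, at 1.19 and 1.04. Tbx20 1453351_at was at 0.50 and -0.04, and Hand2 1436041_at at -0.11 and -0.71. The arms share the direction on every probe set of Mef2c, Isl1, Hand1, Myocd, Tbx5 and Nkx2-5. They also share it on the Tbx20 and Hand2 probe sets other than Tbx20 1453351_at and Hand2 1443854_at. On those, and on both Gata4 probe sets, the directions differ. These are values of 1 array per arm, with no test.

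**Figure D4:**
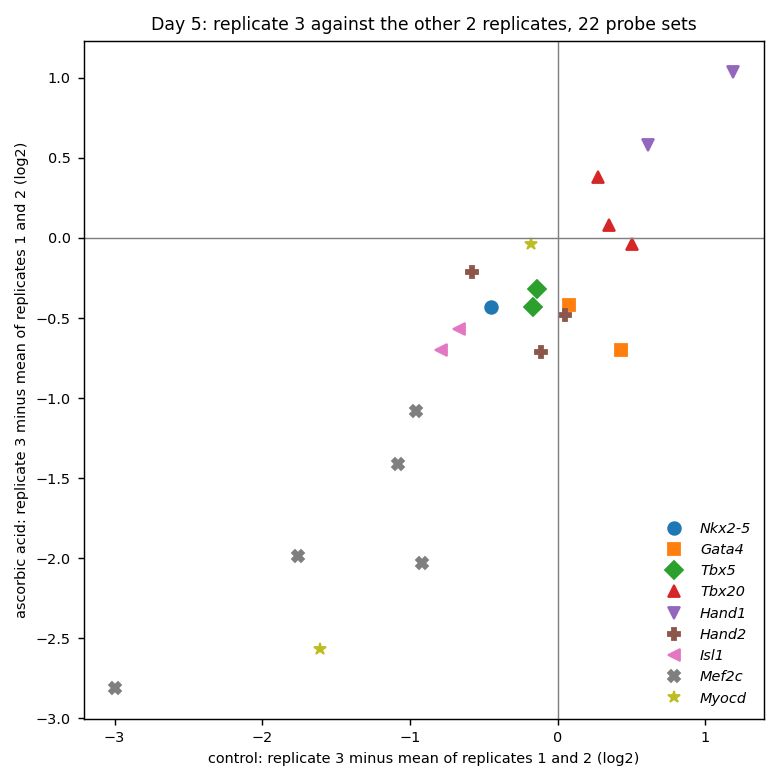
Day 5 replicate 3 minus the mean of replicates 1 and 2, in log2 signal, for each of the 22 probe sets, control on the horizontal axis and AA on the vertical axis. Each point is 1 probe set. Mef2c and Myocd 1425978_at lie below 0 in both arms and Hand1 above 0.

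Markers of other cell types moved along with these steps. The summed linear signal of 9 endothelial and blood markers was 711 to 789 in day 3 controls, and 3566, 5080 and 2000 in day 5 controls. With AA at day 5 it was 14528, 12956 and 4732, so that replicate 3 was the lowest in both arms, as for Mef2c, and AA was higher in all pairs. At day 5, Cdh5, Pecam1, Tie1 and Gata1 were in the receptor range in controls and Tie1 alone with AA. In the paired fit 5 of the 9 rose with AA at day 5, and in the unpaired fit 2. They include Hbb-bh1, an embryonic globin (2.76 ± 0.24), Tek, an endothelial receptor (1.81 ± 0.17), and Tal1, a blood and endothelial factor (1.63 ± 0.14). The part of endothelial or blood cells in the Mef2c difference was not tested.

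Other marker lists shared the day 3 to day 5 step. In controls the 8 pluripotency markers summed to 19012 to 19687 at day 3 and 1122 to 1448 at day 5, with Pou5f1, Nanog, Zfp42, Esrrb and Tdgf1 then in the receptor range. The 14 extraembryonic endoderm markers summed to 3202 to 4753 at day 3 and 7510 to 10617 at day 5, with 6 of 14 called higher and Afp, Amn, Cubn and Apob in the receptor range at day 5. The 8 trophoblast markers summed to 6676, 6327 and 2318 at day 3, replicate 3 being the lowest, and to 2227 to 3571 at day 5, with 2 called higher and 1 lower. Of the 8, Elf5, Plac1, Ascl2, Krt7 and Tpbpa lay in the receptor range at day 3, and Tfap2c, Elf5, Ascl2 and Tpbpa at day 5. Eomes, which lay above that range at day 3, is also on the list of upstream mesoderm genes. All 8 neural and all 5 skeletal muscle markers lay in the receptor range in day 5 controls. The part of extraembryonic cells in the Gata4 and Hand1 differences was not tested.

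The companions of the factors were taken from lists of relatives, partner proteins, heart field genes and target genes, 1 probe set per gene (the brightest). In the control step from day 3 to day 5, 17.0% of all genes were called (8.40% higher, 8.56% lower), with a median of -0.03. Of 16 relatives of the factors, 7 rose and 0 fell, with a list median of 0.57. Among them were Hey2, a Notch target of the ventricle (3.89), Gata6, a relative of Gata4 that is also active in the heart (2.79), and Tbx2, a repressor of the atrioventricular canal (2.53). Gata6 is also on the list of extraembryonic endoderm markers. With AA 10 of the 16 relatives rose, where 8.64% of all genes did. At day 5, 6 of the 16 lay in the receptor range in controls and 7 with AA, Tbx2 among the 7. Of 20 partner proteins, 11 rose and 0 fell (median 0.55). Smarcd3, the chromatin subunit Baf60c that works with GATA4 and TBX5, rose by 3.39, and Zfpm1, a GATA cofactor, by 1.39. With AA 7 of the 20 rose.

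Most heart field companions were called higher, though 8 of 14 still lay in the receptor range at day 5 in each arm. Those 8 were Fgf10, Foxf2, Foxc1, Foxc2, Eya1, Prrx1, Tcf21 and Aldh1a2. Of 14 measured, 11 rose and 0 fell in controls (median 1.65) and 10 rose with AA. They include Foxf1, a lateral mesoderm factor (4.03), Smad6, an inhibitor of BMP signalling (3.54), and Msx2, a BMP target (3.14). Their summed signal at day 5 was 5639, 7072 and 11023 in controls and 4043, 5516 and 9093 with AA, replicate 3 being the highest in both, as for Hand1. Of 18 mesoderm genes that act upstream of the factors, 5 rose and 7 fell in this step (median -0.24), among them Kdr, the receptor on early cardiovascular progenitors (2.73), and Nodal, the streak signal (-3.73). Kdr is also on the list of endothelial and blood markers. The upstream genes moved earlier as well. Between day 2 and day 3 in controls 4 of the 18 rose (4.05% of all genes did), when 0 of the 22 probe sets of the factors were called. Replicate 3 of day 3 stood apart here in both arms, since the 18 summed to 16295, 16006 and 8294 in day 3 controls and 13334, 13663 and 7490 with AA. Without both of these arrays 9 of the 18 rose in this step in controls, 8 fell between days 3 and 5 in controls and 9 with AA (5 with all arrays), and 0 of the 22 probe sets of the factors were called between days 2 and 3. Between days 3 and 5, 13 of the 22 were then called in controls and 15 with AA. For the fit without these arrays the share of all genes or probe sets called is not given here. The 4.05% belongs to the fit with all arrays and is no background for it.

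Contractile genes and other targets were mostly at background. Of 24 measured, 5 rose and 1 fell between days 3 and 5 in controls (median -0.01), and 14 of 24 were in the receptor range at day 5, Nppa, Myh6, Myl2, Tnnt2 and Ttn among them. Those that rose include the slow skeletal troponin I gene Tnni1 (2.48), the troponin C gene Tnnc1 (2.37) and the atrial light chain Myl4 (1.95). Actn2 fell by 0.85, with its mean in the receptor range in all 7 groups. Without replicate 3 of day 3 in both arms 3 of the 24 rose, with no share over all genes given for that fit. In the paired fit 2 of the 24 were higher with AA at day 5, where 0.808% of genes were called. Myl7, an atrial myosin light chain, read 8.02, 8.45 and 6.48 in controls and 10.55, 10.47 and 7.08 with AA, a rise of 1.72 ± 0.24 (limma adjusted p = 0.00114). Actc1, cardiac actin, rose by 1.26 ± 0.25 (adjusted p = 0.0264). Both groups overlapped for Myl7 because replicate 3 was low in each arm. Zfpm1 rose by 0.67 (adjusted p = 0.0312), and Msx1, a heart field companion, fell by 0.68 (adjusted p = 0.0046). These calls come from the paired fit. The unpaired limma fit called 0 of the 20 partners, 14 companions and 24 targets at day 5, with 3, 1 and 4 at an unadjusted p under 0.05.

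The genes closest in profile were sought by the root mean square of the difference of centred log2 signal over the 21 arrays, among 16304 genes. The measure is a description, and all arrays share the same time course. For Hand2 1436041_at the closest was Bmp5, a BMP ligand, at 0.23, then Fbn2 at 0.37 and Nrp1 at 0.39, where the median gene lay at 2.25. For Tbx20 1453351_at they were Pmp22 and Bmp5 at 0.36 and Nrp1 at 0.40 (median 2.49). Isl1 1450723_at had Dlk1 at 0.38, with Frem1 and Tgfb2 at 0.43 (median 1.56).

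Mef2c 1424852_at lay closest to Ctla2b at 0.35, Kdr, a receptor of vascular endothelial growth factor, at 0.37, and Rbm24, a muscle splicing factor, at 0.39 (median 1.42). Myocd 1425978_at lay closest to Ttr at 0.28, Clic6 at 0.31 and Enpep at 0.35 (median 1.02). Hand1 1448750_at had Ano1 at 0.21, Fendrr at 0.22 and Col4a5 at 0.23 (median 0.54), and Gata4 1418863_at had Sox9, Irx1 and Tmod1, each at 0.21 (median 0.52).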

How the data were processed

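The authors deposited log2 signals, made with RMA (background correction, quantile normalisation, summary over the probes of a set) per the submitters' processing notes, with no version given in the sources used here. Arrays give no read depth, and their number limits the precision. The 9 factors, the gene lists and the tests were chosen with earlier results of these data known. All 45037 probe sets other than 64 AFFX controls were fitted with limma 3.58.1 in R 4.3.3 (lmFit and eBayes with an intensity trend, 7 group means). Calls are at a Benjamini-Hochberg adjusted p under 0.05. No filter on low values was used. Gene lists use the brightest probe set of each gene, with the p-values of the same fit, adjusted over all 45037 probe sets. All 22 symbols matched RefSeq by Entrez identifier.

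The replicate numbers come from the labels, which do not say whether same-numbered arrays shared a culture. Within a day, same-numbered AA and control arrays had correlated deviations from their group means (r from 0.16 to 0.606, over 0.1 in 9 of 9 pairs), so a paired fit with 9 pairs as blocks over 18 arrays was added after seeing the data. The likeness rule takes, for the factors that changed, the 3 genes with the smallest distance. Genes named from a list are among its 4 with the smallest p of those called. Alternatives were the replicate block, a renewed quantile normalisation, 1 probe set a gene, no trend, only the groups compared, a filter on low means and leaving out each array.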

Additional observations from a re-analysis of the deposited data

Results flagged for a closer look

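The effect of ascorbic acid differed between days for 3 probe sets of Mef2c in the paired fit, by the limma F test of the difference itself. The Benjamini-Hochberg adjusted p was 0.00174 for 1421027_a_at, 0.0418 for 1424852_at and 0.0397 for 1451507_at. In each, treated arrays exceeded their controls in 3 of 3 pairs at day 5, and day 5 replicate 3 was the lowest array in both arms. With each of the 9 pairs left out in turn, 1421027_a_at was called in 9 fits, 1424852_at in 1 and 1451507_at in 2. At days 2 and 3 all group means of these probe sets lay in the receptor range.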

How the results depend on the processing

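The replicate number as a block within a day (the paired fit) raised the count of called probe sets for AA minus control from 0 to 1 at day 2, from 0 to 4 at day 5, from 0 to 1 for the average over days and from 0 to 3 for the difference between days. It changed no other call of AA minus control. As a block over all arrays, the replicate number ended the call of Hand2 1422221_at between days 3 and 5 in controls (adjusted p = 0.0544) and added calls for Myocd 1425978_at in that step (0.0362), Mef2c 1451507_at from day 0 to day 5 in controls (0.0454) and Tbx5 1425695_at from day 0 to day 5 with AA (0.0446), and changed no other call. With replicate 3 of day 5 left out in both arms, chosen after seeing the data, the unpaired counts were 4 at day 5, 1 for the average and 2 for the difference between days. The share of all probe sets called in that fit is not given here. Leaving out single arrays gave 0 to 1 at day 5 and 0 to 1 for the difference between days. In the paired fit, leaving out a pair gave 2 to 5 at day 5, 1 to 2 for the average and 1 to 3 for the difference between days (1 in 7 of the 9), and the renewed quantile normalisation gave 2 for the average. The added calls for the average were Tbx20 1453351_at without day 5 pair 2 (-0.31), Mef2c 1451507_at without day 5 pair 3 (0.46) and Mef2c 1424852_at after renewed normalisation (0.31). The single call between day 0 and day 2 in controls went to 0 with only the compared groups in the fit and was 0 to 0 over the single arrays left out. Between days 3 and 5 the counts ran from 12 to 16 in controls and from 14 to 16 with AA when single arrays were left out. The list counts were compared only for the control step from day 3 to day 5 and for AA minus control at day 5. When the most variable probe set stood for each gene, 7 counts moved, by 1 gene each. Nonzero counts with a small relative change were not taken as moved. Over all alternatives 0 called values changed direction. Of the factors' values, 3596 stayed called or stayed uncalled, the latter whatever their sign, 35 gained a call and 49 lost one. Signal near the receptor range limits 7 of the 22 probe sets in every group.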
